A study of Homo sapiens with 12 samples.

Results

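The comparison set KMS11 myeloma cells carrying the second short hairpin RNA against STK17B (sh2, 2 libraries) beside KMS11 cells carrying the first one (sh1, 2 libraries). These 4 of the 12 RNA-seq libraries of the series were taken by their labels, and no control library entered the difference. Of 29607 genes in the table, 12731 were tested, those with at least 1 TPM (the abundance measure that accounts for transcript length and library total) in at least 2 of the 12 libraries. KMS11 is an established human multiple myeloma line, and the series asks what STK17B does in it. The sh2 and sh1 cells share the genotype label of an STK17B hairpin and received no drug, so they differ in the hairpin alone as far as the labels go. The other 8 libraries, 2 each of STK17B inhibitor, STK17B overexpression, Vector and shControl cells, helped only to estimate the spread between replicates. The hairpin sequences, their promoter and vector, and whether the cells were pools or clones are not given in the sources used here. Nothing says that the 2 replicates of a hairpin were separate cultures, so the p-values measure the spread between these libraries, which may be technical. The values are TPM without counts, so library depth is unknown.

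STK17B, also called DRAK2, belongs to the death-associated protein kinases, which phosphorylate serine and threonine, and is best known from lymphocytes. A short hairpin RNA is cut by Dicer into a small duplex, and 1 strand guides an Argonaute protein to transcripts that pair with it. Hairpins of different sequence against the same transcript share that target, while the depth of the knockdown and the other transcripts that pair with the guide can differ. Myeloma cells are malignant plasma cells, whose identity rests on transcription factors such as IRF4 and XBP1 and on a large secretory apparatus.

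The hairpins gave close transcriptomes. With sh2, 148 genes were higher and 49 were lower than with sh1 at an adjusted p under 0.05 (limma on log2(TPM + 1), Benjamini-Hochberg over all 12731 genes), which is 1.16% and 0.385% of the genes tested, 1.55% together. At an unadjusted p under 0.05 there were 2295 genes. The called differences were small: the median was 0.26 on the log2 scale among the higher genes and -0.23 among the lower ones, and 6 higher genes and 1 lower gene reached an estimated 2-fold difference. Most called genes coded for protein, 132 of the higher and 45 of the lower, and the higher genes also held 9 long noncoding RNAs and 3 small nucleolar RNAs. Called genes were abundant, with a median level of 61.4 TPM among the higher and 78.4 TPM among the lower, against 12.8 TPM over all tested genes. In all 197 called genes the sh2 and sh1 libraries did not overlap, and the same held for 6104 (47.9%) of all tested genes.

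**Figure D1:**
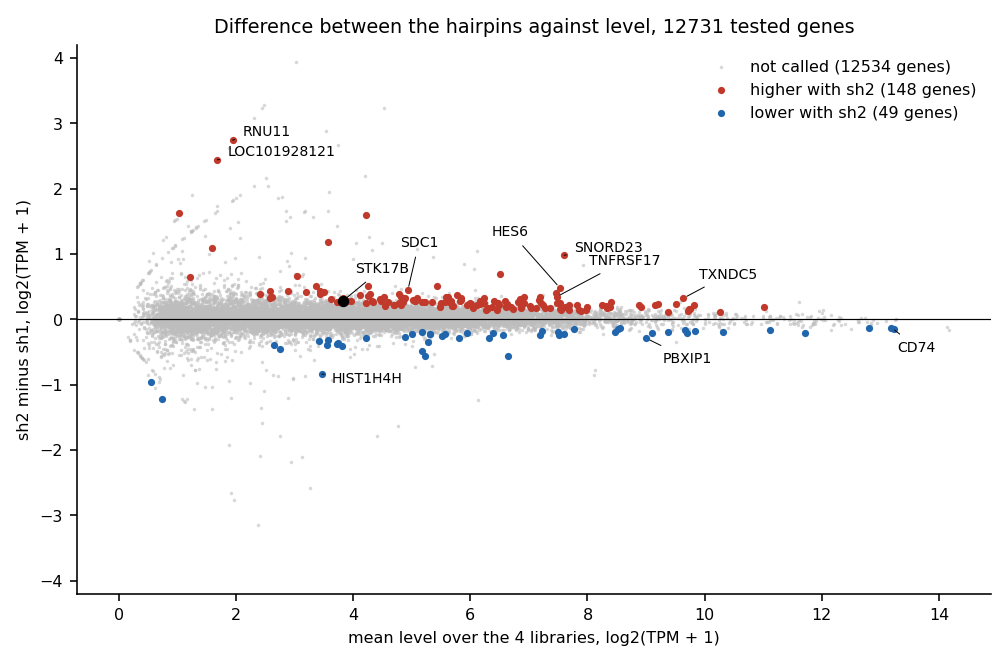
Difference between the hairpins (sh2 minus sh1, vertical axis, log2(TPM + 1)) against the mean level over the 4 libraries (horizontal axis, log2(TPM + 1)) for the 12731 tested genes. Red points are the 148 genes higher with sh2, blue points the 49 lower, grey points the genes not called, and the black point is STK17B, which was not called.

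The distance between libraries of different hairpins was hardly larger than that between replicates. The SD over genes of the log2 difference was 0.290 between the sh2 replicates and 0.282 between the sh1 replicates, and 0.291 to 0.306 between an sh2 and an sh1 library. Nearly all of the calls rest on the spread shared by the 12 libraries. Fitted on the 4 hairpin libraries alone, 4 genes were higher and 1 was lower, of which 2 were among the 197 calls. Each library mattered. The counts were 15 higher and 2 lower without sh2 replicate 1, 19 and 3 without sh2 replicate 2, 23 and 7 without sh1 replicate 2, and 70 and 12 without its replicate 1. The tilt towards higher calls depended on scaling. Higher genes made up 75.1% of the calls with TPM as deposited, 52.6% once rescaled by the median of ratios (51 higher, 46 lower) and 54.1% once quantile-normalized (106 higher, 90 lower). The median difference of all tested genes was 0.03 with TPM as deposited, and 60.7% of the tested genes had a positive difference. That median was 0.037 without sh2 replicate 1 and 0.025 without sh2 replicate 2. It was 0.057 without sh1 replicate 1 and 0.005 without sh1 replicate 2, so it moved most with the sh1 library left out.

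**Figure D2:**
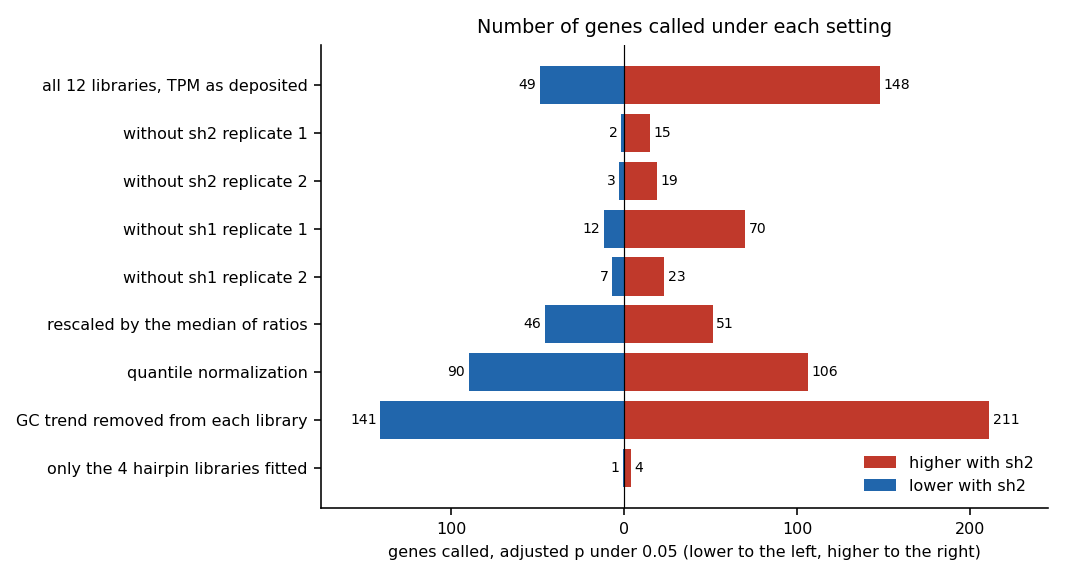
Number of genes called (horizontal axis, adjusted p under 0.05), higher with sh2 to the right in red and lower to the left in blue, with all 12 libraries and TPM as deposited (top) and under 8 other settings. Leaving out any of the 4 hairpin libraries lowered both counts, and removing the GC trend raised them to 211 and 141.

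The composition of the transcripts moved with the difference. Among 8382 protein-coding genes of at least 5 TPM, the median difference fell across 4 equal groups of rising GC content, with 0.08, 0.04, 0.01 and -0.01 on the log2 scale. The sh2 replicates differed by -0.02 to 0.00 in every group. The sh1 replicates differed along GC content, with medians of 0.11, 0.07, 0.03 and -0.02 for sh1 replicate 1 minus sh1 replicate 2 over those groups. Without sh1 replicate 2 the group medians of sh2 minus sh1 were 0.03, 0.01, -0.01 and 0.00, and without sh1 replicate 1 they were 0.13, 0.08, 0.02 and -0.02. The higher genes had a median GC content of 47.0%, the lower genes 54.9% and all tested genes 48.3%. When the GC trend of each library was removed, an alternative chosen after seeing the data, 211 genes were higher and 141 lower among 11753 genes with a known sequence, 59.9% of them higher.

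**Figure D3:**
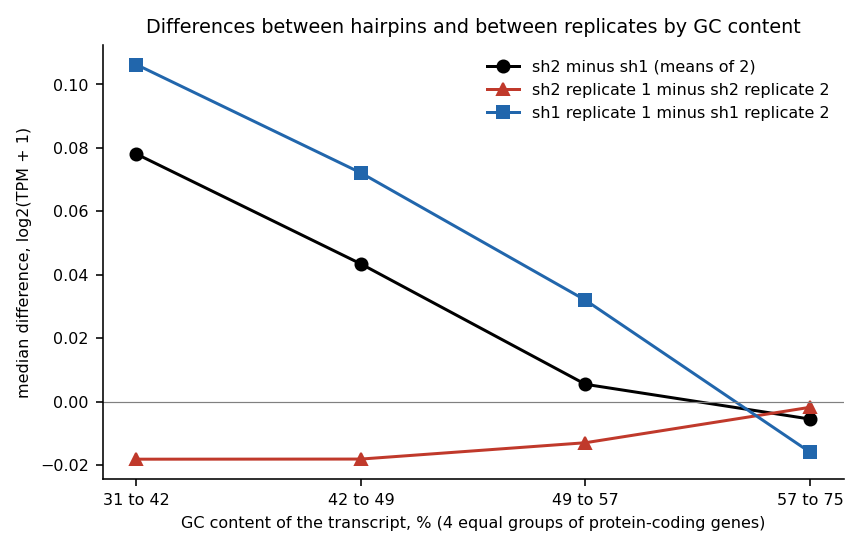
Median difference (vertical axis, log2(TPM + 1)) in 4 equal groups of protein-coding genes ordered by the GC content of the transcript (horizontal axis, %). The black line is sh2 minus sh1, the red line sh2 replicate 1 minus replicate 2 and the blue line sh1 replicate 1 minus replicate 2, which is at 0.11 in the lowest GC group and at -0.02 in the highest.

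STK17B itself (ENSG00000081320.10; GRCh38, chr2:196133566-196176503, minus strand, protein-coding) had 14.7 and 14.5 TPM with sh2, against 12.7 and 10.9 TPM with sh1. Both sh2 libraries were above both sh1 libraries, a separation in one direction or the other that 47.9% of all tested genes had, and all 4 were below the 22.4 to 94.1 TPM of the other 8 libraries. The means were 14.6 ± 0.141 TPM with sh2 and 11.8 ± 1.26 TPM with sh1 (SD, n = 2 each), 23.5% higher with sh2. The log2 difference of 0.29 (SE 0.084, 95% interval 0.10 to 0.47) did not pass, with an adjusted p of 0.116. An exact two-sided permutation test gave p = 0.333, the smallest that 2 libraries against 2 can give. With the GC trend removed the difference was smaller, 0.20, and passed, at an adjusted p of 0.0439.

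None of the 4 tested members of the kinase family, STK17B included, was called. STK17A, the closest relative of STK17B, had 51.1 and 47.6 TPM with sh2 and 50.5 and 51.2 TPM with sh1, a log2 difference of -0.04 (95% interval -0.15 to 0.06). The sh2 libraries lay on both sides of the sh1 libraries. DAPK3 overlapped as well, with 50.6 and 44.4 TPM with sh2 and 47.5 and 51.3 TPM with sh1. DAPK1 had 10.3 and 10.02 TPM with sh2 and 9.83 and 8.88 TPM with sh1, an adjusted p of 0.472. DAPK2 stayed below 0.5 TPM in all 4 libraries and was not tested.

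A group of 12 genes was called in the fit of all libraries and again whichever hairpin library was left out. Of these, 8 code for protein, and 7 of them were higher with sh2: HES6, INSIG1, KIAA1549L, PABPC4, SDC1, TNFRSF17 and TXNDC5. The other 1, PBXIP1, was lower. HES6, a relative of the HES repressors that acts against HES1, had 220.2 and 208 TPM with sh2, against 149.98 and 156 TPM with sh1. The groups were well apart, and the log2 difference was 0.48 (SE 0.041, adjusted p = 0.00114). INSIG1, which holds the sterol sensor of the SREBP pathway in the endoplasmic reticulum, had 202 and 197 TPM with sh2, against 154 and 148 TPM with sh1 (log2 difference 0.40, adjusted p = 0.00213). PABPC4, a cytoplasmic poly(A)-binding protein, had 218 and 222 TPM with sh2, against 189 and 188 TPM with sh1, and 255 to 288 TPM in the other 8 libraries. Its difference, 0.22, was the smallest of the 8. KIAA1549L had 30.10 and 29.997 TPM with sh2, against 23.2 and 22.3 TPM with sh1 (log2 difference 0.39). PBXIP1, which binds PBX transcription factors, had 463 and 458 TPM with sh2, against 567 and 558 TPM with sh1. The sh1 libraries were the highest of the series for this gene, the other 8 running from 122 to 463 TPM, and the log2 difference was -0.29 (SE 0.024, adjusted p = 0.0011). The 8 protein-coding genes lie at chr2:238238267-238240662 (HES6, minus strand), chr7:155297776-155310235 (INSIG1, plus), chr11:33376466-33674102 (KIAA1549L, plus), chr1:39560816-39576790 (PABPC4, minus), chr2:20200797-20225433 (SDC1, minus), chr16:11965107-11968068 (TNFRSF17, plus), chr6:7881517-7910814 (TXNDC5, minus) and chr1:154944076-154956123 (PBXIP1, minus) of GRCh38.

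**Figure D4:**
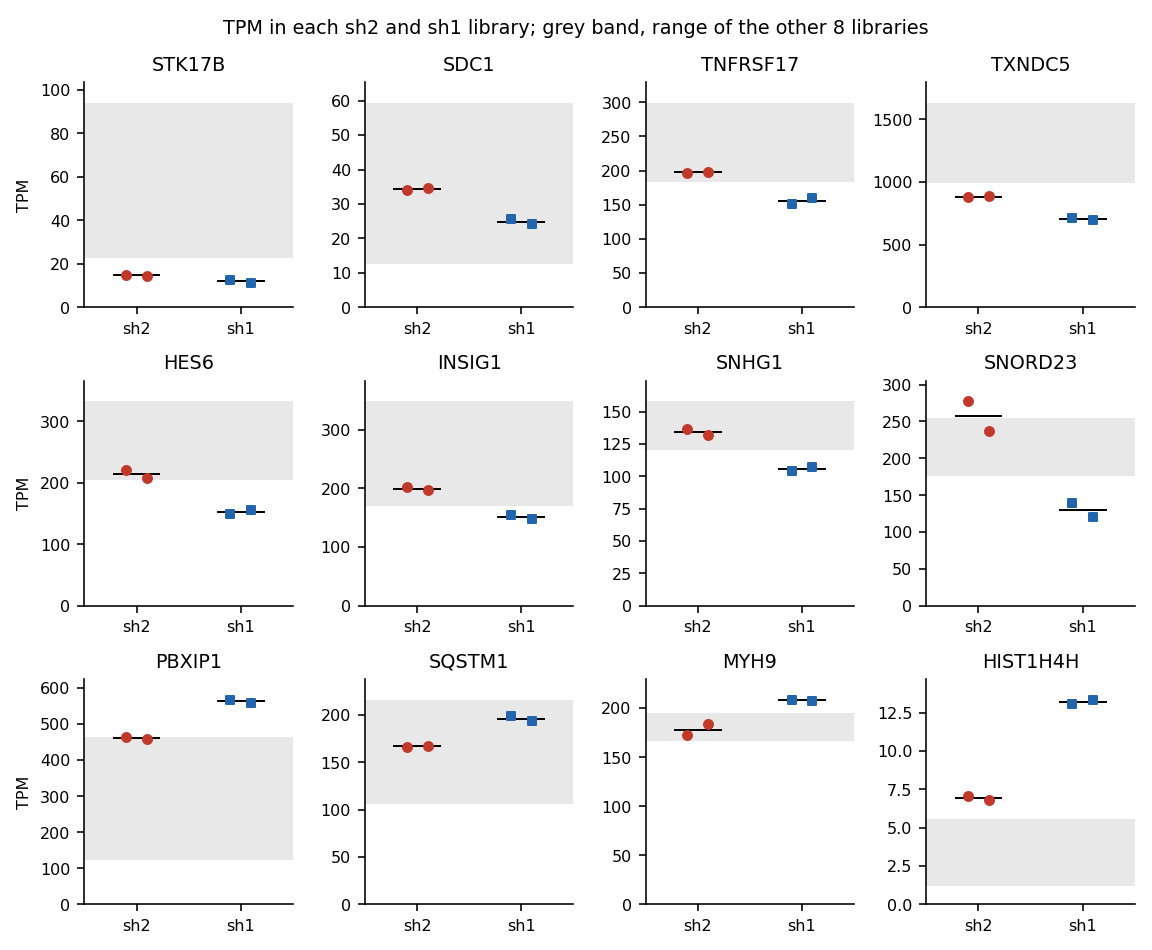
TPM (vertical axes, from 0) of 12 genes in each sh2 library (red circles, left) and sh1 library (blue squares, right), with the mean of each pair as a black line and the range of the other 8 libraries as a grey band. The 2 sh2 points and the 2 sh1 points do not overlap in any panel, which was also so for 47.9% of all tested genes. Every panel but that of STK17B shows a called gene, and no called gene had overlapping libraries.

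Plasma cell genes were the group with the most calls. A list of plasma cell identity and secretory genes had 19 tested members. Of these, 9 were higher with sh2 and none was lower, against 1.16% and 0.385% of all tested genes. A positive difference was found in 18 of the 19, against 60.7% of all tested genes. The list's median was 0.22, against 0.03 over all tested genes, and it stayed between 0.18 and 0.26 when any hairpin library was left out and at 0.16 with the GC trend removed. SDC1 encodes syndecan-1 (CD138), the surface marker by which plasma cells are recognised. It had 34.0 and 34.5 TPM with sh2, against 25.7 and 24.1 TPM with sh1, with a log2 difference of 0.45 (SE 0.045, adjusted p = 0.00353). TNFRSF17, the survival receptor BCMA, had 197 and 198 TPM with sh2, against 151 and 159.6 TPM with sh1 (log2 difference 0.34, adjusted p = 0.0011). For both genes each pair of replicates was tight and the hairpins stood clearly apart. SLAMF7, a surface receptor targeted by a myeloma antibody, had 8.70 and 10.2 TPM with sh2, against 6.76 and 6.79 TPM with sh1 (log2 difference 0.42, adjusted p = 0.046). Here the sh2 libraries differed from each other, and the call was lost in all 4 fits that left out a library.

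The transcription factors of the plasma cell programme were part of it. IRF4 had 76.9 and 77.8 TPM with sh2, against 65.3 and 61.5 TPM with sh1 (log2 difference 0.28, SE 0.037, adjusted p = 0.0114). XBP1, the regulator of secretory capacity, had 967 and 968 TPM with sh2, against 845 and 824 TPM with sh1 (log2 difference 0.21, SE 0.026, adjusted p = 0.00929). In both, the sh2 values lay above both sh1 values, and both calls remained without sh1 replicate 1 but were lost without sh1 replicate 2, sh2 replicate 1 or sh2 replicate 2. PRDM1, which silences the B cell programme, had 20.2 and 22.2 TPM with sh2 and 19.9 and 16.9 TPM with sh1 and was not called (adjusted p = 0.256). Among the endoplasmic reticulum members, TXNDC5, a protein disulfide isomerase, had 883 and 885 TPM with sh2, against 716 and 697 TPM with sh1 (log2 difference 0.32, SE 0.023, adjusted p = 0.000468). That was the lowest adjusted p of any protein-coding gene here, and both hairpins were below the 990.4 to 1634 TPM of the other 8 libraries. MZB1, an immunoglobulin chaperone, averaged 369 TPM with sh2 and 309 TPM with sh1 (log2 difference 0.26). SEC11C, a signal peptidase subunit, averaged 614 TPM with sh2 and 527 TPM with sh1 (0.22), and FKBP11, a prolyl isomerase, 196 TPM with sh2 and 176 TPM with sh1 (0.15). IGJ, the joining chain of secreted antibody, was abundant with both hairpins, with 4164 and 4265 TPM with sh2 and 4092 and 3813 TPM with sh1, and was not called (adjusted p = 0.415). Of the 9 calls, 3 remained without sh2 replicate 1, 3 without sh2 replicate 2, 7 without sh1 replicate 1 and 4 without sh1 replicate 2. All 9 remained with the GC trend removed, 7 with quantile normalization and 6 with the median of ratios.

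Of 15 myeloma oncogenes tested, 5 were higher with sh2 and none was lower, against 1.16% and 0.385% of all tested genes. Their median was 0.10, against 0.03 over all tested genes. FGFR3 and WHSC1 (NSD2), the genes that the translocation of KMS11 activates, were among the 5 calls. FGFR3 had 873 and 879 TPM with sh2, against 795 and 804 TPM with sh1 (log2 difference 0.13, adjusted p = 0.0345), and WHSC1 had 146 and 147 TPM with sh2, against 132 and 128 TPM with sh1 (0.18, adjusted p = 0.027). CCND2, a D-type cyclin, had 82.1 and 82.9 TPM with sh2, against 73.1 and 72.3 TPM with sh1 (0.18, adjusted p = 0.0453). PIM1, a kinase that promotes survival, had 78.8 and 82.2 TPM with sh2, against 68.8 and 65.8 TPM with sh1 (0.26, adjusted p = 0.0472). The fifth was IRF4. None of the 5 calls remained without sh2 replicate 1, without sh2 replicate 2 or without sh1 replicate 2, 1 remained without sh1 replicate 1, and all 5 remained with the GC trend removed. After the median of ratios 1 of the 5 calls remained, and 3 did with quantile normalization. MYC was not called, at 393 and 398 TPM with sh2 and 364 and 345 TPM with sh1 (log2 difference 0.16, adjusted p = 0.0702). MAF, a further translocation target of the line, overlapped between the hairpins, at 131 and 131 TPM with sh2 and 127 and 133 TPM with sh1. Of 28 MYC targets of ribosome biogenesis, NOP56, a core small nucleolar ribonucleoprotein, and ODC1, which starts polyamine synthesis, were higher, by 0.15 and 0.13. Neither call remained in any of the 4 fits that left out a library, after the median of ratios or with the GC trend removed. The median of those targets was 0.11.

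Genes of the secretory pathway and of the cell cycle had positive medians with 4 calls or fewer in each list. Called members, all higher, made up 5.88% of the unfolded protein response list, 12.1% of the G1/S list and 3.70% of the G2/M list. Over all tested genes, 1.16% were called higher, 60.7% had a positive difference and the median was 0.03. Of 34 genes of the unfolded protein response of the endoplasmic reticulum, 30 had a positive difference and 2 were called, XBP1 and PDIA4, a protein disulfide isomerase with 340.3 and 342 TPM with sh2, against 304 and 301 TPM with sh1 (log2 difference 0.17, adjusted p = 0.0167). The median was 0.13. HSPA5, the main chaperone of that compartment, differed by 0.02 and was not called. Of 33 genes of the G1/S transition and DNA replication, 32 had a positive difference and 4 were called, with a median of 0.12. CCNE1, the cyclin that drives entry into S phase, had 25.2 and 24.5 TPM with sh2, against 20.5 and 18.4 TPM with sh1, a log2 difference of 0.34 (SE 0.049, adjusted p = 0.0177). SLBP, which binds the stem-loop of histone transcripts, had 156 and 160.1 TPM with sh2, against 132 and 125 TPM with sh1 (0.29, adjusted p = 0.00943). CDC6, a licensing factor of replication origins, and E2F2, an activator of S phase genes, were higher by 0.24 and 0.20. None of the 4 calls remained without sh2 replicate 1, without sh2 replicate 2 or without sh1 replicate 2, and 3 remained without sh1 replicate 1. Of 27 genes of G2/M and mitosis, 26 had a positive difference and only CDK1, the mitotic kinase, was called, with 92.8 and 91.1 TPM with sh2, against 75.9 and 75.5 TPM with sh1 (log2 difference 0.28, adjusted p = 0.0201). The medians of the G1/S and G2/M lists were 0.09 and 0.03 with the GC trend removed, where the median of all genes was 0.00. With any hairpin library left out, the G2/M median ran from 0.03 to 0.11. That of the unfolded protein response list ran from 0.10 to 0.16, and that of all tested genes from 0.005 to 0.057. After the median of ratios 1 of the 2 unfolded protein response calls, 3 of the 4 G1/S calls and the CDK1 call remained.

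The other protein-coding genes with the largest positive differences had varied roles. PIGL, an enzyme of GPI anchor synthesis, had 9.27 and 8.89 TPM with sh2, against 5.19 and 5.54 TPM with sh1, the largest difference of a protein-coding gene of at least 5 TPM (log2 difference 0.66, SE 0.101, adjusted p = 0.0205). The sh1 libraries were below the 7.77 to 14.01 TPM of the other 8 libraries, and the sh2 libraries were inside that range. RAB12, a small GTPase of endosomal traffic, had 11.9 and 10.2 TPM with sh2, against 7.68 and 7.30 TPM with sh1 (0.50, adjusted p = 0.0173). IL6R, the receptor for the myeloma growth factor interleukin 6, had 12.3 and 11.5 TPM with sh2, against 8.84 and 8.41 TPM with sh1 (0.42, adjusted p = 0.00792), and its call was lost only without sh2 replicate 1. TNFAIP8, a regulator of cell death, differed by 0.44, DSCC1, a subunit of a clamp loader for sister chromatid cohesion, by 0.39, AMPD1, an AMP deaminase, by 0.39, and MFSD11, a transporter-like protein, by 0.39. NGLY1, which removes N-glycans from misfolded proteins, differed by 0.38, and NAA50, an N-terminal acetyltransferase, by 0.37. FAM156B differed by 0.50, but it has a near-identical copy, FAM156A, so its reads could be divided between them. Of these 15 genes with SDC1, SLAMF7, HES6, INSIG1 and KIAA1549L included, 4 were still called without sh2 replicate 1, 6 without sh2 replicate 2, 7 without sh1 replicate 1 and 5 without sh1 replicate 2. All 15 kept their direction in these fits, which was certain in advance, since genes with overlapping libraries were not chosen. Of the 15, 10 were called after the median of ratios, 11 with quantile normalization and 14 with the GC trend removed.

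Among the noncoding genes, short structured RNAs had the largest differences. Of the 3 small nucleolar RNAs called, 2 are shown here beside the minor spliceosome RNA RNU11, with their conserved boxes in capitals: in SNORD23 the C box and the D box, which bind the proteins of methylation guides, and in SNORA8 the ACA box near the end, which marks pseudouridylation guides.
SNORD23: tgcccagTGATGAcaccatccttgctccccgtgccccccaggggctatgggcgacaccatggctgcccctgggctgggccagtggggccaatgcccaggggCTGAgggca
SNORA8: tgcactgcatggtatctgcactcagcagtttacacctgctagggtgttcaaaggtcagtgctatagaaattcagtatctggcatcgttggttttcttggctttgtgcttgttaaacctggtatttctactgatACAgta
RNU11: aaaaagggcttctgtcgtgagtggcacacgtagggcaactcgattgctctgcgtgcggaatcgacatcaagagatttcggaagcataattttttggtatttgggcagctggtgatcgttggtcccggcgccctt
The sequences are GENCODE 29 transcripts on GRCh38, at chr19:47755853-47755962 (SNORD23, plus strand), chr11:93732361-93732499 (SNORA8, minus) and chr1:28648600-28648733 (RNU11, plus), with 110, 139 and 134 bases. Such RNAs are short and mostly lack a poly(A) tail, and the libraries were made from poly(A)-selected RNA. The number of reads behind their TPM is unknown.

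SNORD23 had 277 and 236 TPM with sh2, against 139 and 121 TPM with sh1 (log2 difference 0.98, SE 0.159, adjusted p = 0.0246). SNORA8 had 126 and 96.7 TPM with sh2, against 65.5 and 70.3 TPM with sh1 (0.70, adjusted p = 0.0332). Each of these RNAs is spliced from the intron of a host. NOP53, the host of SNORD23 (listed as GLTSCR2), overlapped between the hairpins at 449 and 457 TPM with sh2 and 429.7 and 463 TPM with sh1 (log2 difference 0.02). TAF1D, the host of SNORA8, had 41.1 and 43.9 TPM with sh2 and 31.6 and 34.7 TPM with sh1, without overlap, and was not called (log2 difference 0.35, adjusted p = 0.0702). Over all 76 tested SNORA genes the median was 0.22, with 50 positive and 18 negative differences, 8 of exactly 0 and 2 calls. Over 14 SNORD genes it was -0.18 with 1 call. The median of all 120 tested short structured RNAs was 0.18. That median ran from 0.00 without sh2 replicate 2 to 0.49 without sh1 replicate 1. For comparison, 60.7% of all tested genes had a positive difference and 1.55% were called. The call of SNORD23 was lost in all 4 fits that left out a library. SNORA8 remained called only without sh2 replicate 2.

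RNU11 was listed at 5.64 and 5.74 TPM with sh2 and at 0 in both sh1 libraries and in all 8 others (adjusted p = 1.29e-05). LOC101928121 was listed at 4.34 and 4.52 TPM with sh2 and at 0 in the other 10 libraries (adjusted p = 2.26e-05). LOC102723914, a long noncoding RNA, was listed at 2.01 and 2.18 TPM with sh2 and at 0 elsewhere. LOC101926886 ran the other way, listed at 0 with sh2, at 1.35 and 1.28 TPM with sh1 and at 0 in the other 8. These 4 genes are the ones that complete the group of 12 above. A value of 0 in an estimated TPM table can be a failed estimate, so no fold is given. In all, 17 genes were listed at 0 in both libraries of 1 hairpin and at 1 TPM or more in both of the other. Of these, 12 were present with sh2 and 5 with sh1, and only the 4 above were called. Those 4 were also the only ones of the 17 at 0 in all 8 other libraries. Pairs of zeros add no spread to the shared estimate, so the low p and repeated calls of these 4 rest partly on the zeros elsewhere. The 5 genes called on the 4 hairpin libraries alone were also at 0 in both libraries of 1 hairpin: RNU11, LOC101928121, LOC102724386 and SNORD67, present with sh2, and SNORA41, present with sh1. RN7SK, a scaffold RNA that sequesters the elongation factor P-TEFb, was the lower short RNA, with 87.4 and 72.5 TPM with sh2, against 108 and 129.7 TPM with sh1 (log2 difference -0.56, adjusted p = 0.0395). Its call remained with the GC trend removed and without sh1 replicate 1, but not in the other 3 fits that left out a library, nor with the median of ratios.

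Of 21 host genes of small nucleolar RNAs tested, 5 were higher with sh2, none was lower and 18 had a positive difference. The shares over all tested genes were 1.16% higher, 0.385% lower and 60.7% positive. Against 0.03 over all tested genes, the median of the hosts was 0.21. It stayed at 0.20 to 0.22 when any hairpin library was left out and was 0.20 with the GC trend removed. SNHG12 had 54.1 and 44.8 TPM with sh2, against 33.1 and 35.8 TPM with sh1 (log2 difference 0.50, SE 0.080, adjusted p = 0.0239). SNHG1 had 136 and 132 TPM with sh2, against 104 and 108 TPM with sh1 (0.34, SE 0.035, adjusted p = 0.00361), and its call was lost only without sh2 replicate 1. SNHG3 had 61.7 and 63.8 TPM with sh2, against 50.8 and 48.6 TPM with sh1 (0.33, adjusted p = 0.0239). SNHG17 and SNHG7 were higher by 0.27 and 0.22. GAS5 and SNHG5, also hosts, differed by 0.02 and -0.01 and SNHG18 by -0.31, without a call. After the median of ratios 3 of the 5 calls remained, with the GC trend removed 4, and with quantile normalization all 5. None of the 5 calls remained without sh2 replicate 1, 2 remained without sh2 replicate 2, and 1 with either sh1 library left out.

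Many such hosts, like ribosomal protein genes, start with a C followed by a run of pyrimidines, a feature by which their translation is controlled. The start regions of the 5 called hosts and of 2 called ribosomal protein genes are printed from 60 bases before to 20 bases after the annotated start, with the pyrimidine run that begins at the start in capitals.
SNHG1: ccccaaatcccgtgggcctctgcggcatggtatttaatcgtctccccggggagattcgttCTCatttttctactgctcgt
SNHG3: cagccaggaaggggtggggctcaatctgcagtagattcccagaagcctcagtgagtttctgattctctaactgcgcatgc
SNHG7: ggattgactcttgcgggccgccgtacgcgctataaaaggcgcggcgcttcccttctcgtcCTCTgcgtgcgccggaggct
SNHG12: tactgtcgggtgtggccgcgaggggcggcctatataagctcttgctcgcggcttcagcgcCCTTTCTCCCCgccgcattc
SNHG17: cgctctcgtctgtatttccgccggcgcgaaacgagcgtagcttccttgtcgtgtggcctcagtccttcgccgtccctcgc
RPS14: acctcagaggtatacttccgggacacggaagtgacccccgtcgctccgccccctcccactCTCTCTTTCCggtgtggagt
RPS18: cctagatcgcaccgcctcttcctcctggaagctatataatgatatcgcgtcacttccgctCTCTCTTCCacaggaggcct
They are RefSeq sequences of GRCh38.p14, at chr11:62855866-62855945 (SNHG1, minus strand), chr1:28505883-28505962 (SNHG3, plus), chr9:136728165-136728244 (SNHG7, minus), chr1:28581854-28581933 (SNHG12, minus), chr20:38435309-38435388 (SNHG17, minus), chr5:150449720-150449799 (RPS14, minus) and chr6:33272015-33272094 (RPS18, plus). A C at the annotated start followed by C or T bases to a run of at least 5 on the transcribed strand was found in 1 of the 5 called hosts, SNHG12, and in 7 of 18 tested hosts with a sequence (38.9%). It was found in 43 of 63 tested ribosomal protein genes with a sequence (68.3%) and in 4.02% of all 27305 start regions of this length. Of 79 tested ribosomal protein genes none was higher and 3 were lower, against 1.16% and 0.385% of all tested genes, with a median of -0.01. RPS14 had 3089 and 3105 TPM with sh2, against 3520 and 3633 TPM with sh1 (log2 difference -0.21, adjusted p = 0.0241), and RPS18 had 6875 and 6768 TPM with sh2, against 7448 and 7491 TPM with sh1 (-0.13, adjusted p = 0.0263). RPL37 differed by -0.16. All 3 were called with the GC trend removed and none after the median of ratios, and they have many processed copies in the genome that can take up reads. Of the 3 calls, 1 remained without sh1 replicate 1 and none without sh1 replicate 2, sh2 replicate 1 or sh2 replicate 2.

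The largest decreases among called protein-coding genes of at least 5 TPM were those of 2 replication-dependent histone genes. HIST1H4H had 7.09 and 6.81 TPM with sh2, against 13.1 and 13.3 TPM with sh1 (log2 difference -0.84, SE 0.136, adjusted p = 0.0246), and HIST1H2AC had 28.3 and 29.7 TPM with sh2, against 46.1 and 41.0 TPM with sh1 (-0.57, SE 0.108, adjusted p = 0.0395). The 4 hairpin libraries were above the 1.16 to 5.57 TPM of HIST1H4H in the other 8, and sh1 was the highest. These were the only 2 calls among 36 tested histone cluster genes, against 0.385% of all tested genes called lower. Of the 36, 25 had a negative and 11 a positive difference, against 39.3% negative over all tested genes. The summed level of all 70 listed histone cluster genes was 591 and 611 TPM with sh2, against 675 and 675 TPM with sh1. The list's median was -0.18, and it ranged from -0.27 without sh2 replicate 2 to -0.05 without sh2 replicate 1. Both calls were lost in all 4 fits that left out a library, sh2 replicate 1, sh2 replicate 2, sh1 replicate 1 or sh1 replicate 2. Histone transcripts end in a stem-loop and mostly lack a poly(A) tail, and copies of a histone gene share sequence, so single members are uncertain.

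Of 26 genes of the contractile cytoskeleton tested, 3 were lower with sh2 and none was higher, against 0.385% and 1.16% of all tested genes. Their median was -0.03, against 0.03 over all tested genes. FLNA, an actin crosslinker, had 499 and 516 TPM with sh2, against 586 and 586 TPM with sh1 (log2 difference -0.21, adjusted p = 0.023), and MYH9, the heavy chain of nonmuscle myosin, had 172 and 184 TPM with sh2, against 209 and 207 TPM with sh1 (-0.22, adjusted p = 0.0181). All 3 stayed called under both rescalings and with the GC trend removed. None remained without sh2 replicate 1, and 1 remained without each of sh2 replicate 2, sh1 replicate 1 and sh1 replicate 2.

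Of 36 lysosomal and autophagy genes tested, 4 were lower with sh2 and none was higher, against 0.385% and 1.16% of all tested genes. A negative difference was found in 30 of the 36, against 39.3% of all tested genes, and the list's median was -0.08. SQSTM1, the autophagy receptor p62, had 166 and 167 TPM with sh2, against 199 and 193 TPM with sh1 (log2 difference -0.23, SE 0.026, adjusted p = 0.00573), and its call was lost without sh2 replicate 1 or sh2 replicate 2. TPP1, a lysosomal protease, had 35.4 and 35.7 TPM with sh2, against 41.3 and 41.9 TPM with sh1 (-0.22, adjusted p = 0.0374). ATP6AP1, an accessory subunit of the proton pump, and PSAP, the precursor of the saposins, were lower, with differences of -0.19 and -0.13. None of the 4 calls remained without sh2 replicate 1 or without sh2 replicate 2, and 1 remained with either sh1 library left out. After the median of ratios 2 of the 4 calls remained, and all 4 did with quantile normalization and with the GC trend removed. SMPD1, the acid sphingomyelinase of the lysosome, was not on the list and was lower too, with 16.2 and 15.4 TPM with sh2, against 19.5 and 19.3 TPM with sh1 (log2 difference -0.28, adjusted p = 0.0395).

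Antigen presentation on MHC class II is a B cell trait that plasma cells largely lose. Of 16 genes of that pathway and of B cells tested, 3 were lower with sh2 and none was higher, against 0.385% and 1.16% of all tested genes. A negative difference was found in 15 of the 16, against 39.3% of all tested genes, and the list's median was -0.09. HLA-DQA1 had 1178 and 1187 TPM with sh2, against 1357 and 1338 TPM with sh1 (log2 difference -0.19, SE 0.030, adjusted p = 0.0241). HLA-DRB1 had 2095 and 2073 TPM with sh2, against 2289 and 2358 TPM with sh1 (-0.16, adjusted p = 0.0201), and CD74, the invariant chain that chaperones class II molecules, had 8867 and 8981 TPM with sh2, against 9841 and 9640 TPM with sh1 (-0.13, adjusted p = 0.0391). For the 3 genes all 4 hairpin libraries were above the other 8. CIITA, the master activator of class II genes, differed by -0.06 and was not called. Without sh1 replicate 1 there was 1 of the 3 calls, and none remained without sh1 replicate 2, sh2 replicate 1 or sh2 replicate 2. After the median of ratios 1 remained, and with the GC trend removed all 3 did. HLA genes are variable and alike, so reads could be divided between them.

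The remaining large decreases included surface proteins. F2R, the thrombin receptor, had 10.9 and 11.3 TPM with sh2, against 16.1 and 14.01 TPM with sh1 (log2 difference -0.41, adjusted p = 0.0376). L1CAM, an adhesion molecule, had 10.4 and 10.6 TPM with sh2, against 13.6 and 14.2 TPM with sh1 (-0.38, adjusted p = 0.0181), and MFGE8, a secreted protein that binds phosphatidylserine, had 32.3 and 34.0 TPM with sh2, against 43.4 and 41.5 TPM with sh1 (-0.35, adjusted p = 0.0275). The sh1 libraries were the higher ones in each. TSPAN4, a tetraspanin, differed by -0.28, DYRK1B, a kinase linked to quiescence, by -0.40, NRBP1, a pseudokinase, by -0.29, RGP1, which helps to activate RAB6, by -0.33, and ZBTB45, a zinc finger protein, by -0.32. TMEM229B differed by -0.39 and FAM214B by -0.36. Of the 15 protein-coding genes with the largest decreases, 1 was still called without sh2 replicate 1, 1 without sh2 replicate 2, 2 without sh1 replicate 2 and 3 without its replicate 1, and all 15 kept their direction. The kept direction was certain in advance, since genes with overlapping libraries were not chosen. With the GC trend removed all 15 were called, as they were with quantile normalization, and 14 were called after the median of ratios. Outside the protein-coding genes, SMA4 and LOC100996717 were lower, with differences of -0.45 and -0.24. Neither was called after the median of ratios or with any hairpin library left out, and the fit with the GC trend removed held no sequence for them.

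Single calls fell in several other lists. The share called over all tested genes, in either direction, was 1.55%. LDHA, ANKRD37 and ADM, targets of the hypoxia response, were higher with sh2 by 0.15, 0.33 and 0.65 among 33 genes whose median was 0.01. ADM was low, with 1.74 and 1.89 TPM with sh2, against 0.904 and 0.701 TPM with sh1. INSIG1 was the only call among 25 cholesterol genes (median 0.04) and FADS2, a fatty acid desaturase, the only one among 17 fatty acid genes (median 0.05), with a difference of 0.19. PIM1 and IL6R were the calls among 15 genes of the interleukin 6 pathway (median 0.06). HSPA8, a cytosolic chaperone, was higher by 0.12 among 21 heat shock genes. SLC39A8, a zinc and iron importer, was higher by 0.32 among 26 iron genes, and CUL4A, the scaffold of the cereblon ligase, by 0.28 among 9 drug response genes. Of 78 nuclear genes of the respiratory chain, NDUFS6 was higher (0.23) and ATP5I lower (-0.22), with a median of 0.00. LINC00657 (NORAD) was higher by 0.28 among 83 LINC genes, and none of 349 ZNF genes was called. The shares called were 2.56% of the respiratory chain genes and 1.20% of the LINC genes, near the 1.55% of all tested genes. Of the calls in this paragraph, those of LDHA, FADS2, PIM1, HSPA8 and SLC39A8 were lost in each of the 4 fits that left out a library, and those of ANKRD37, ADM, CUL4A, NDUFS6, ATP5I and LINC00657 in 3 of the 4. After the median of ratios LDHA, FADS2, PIM1, HSPA8, NDUFS6 and ATP5I were not called, and with the GC trend removed LDHA and HSPA8 were not.

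**Figure D5:**
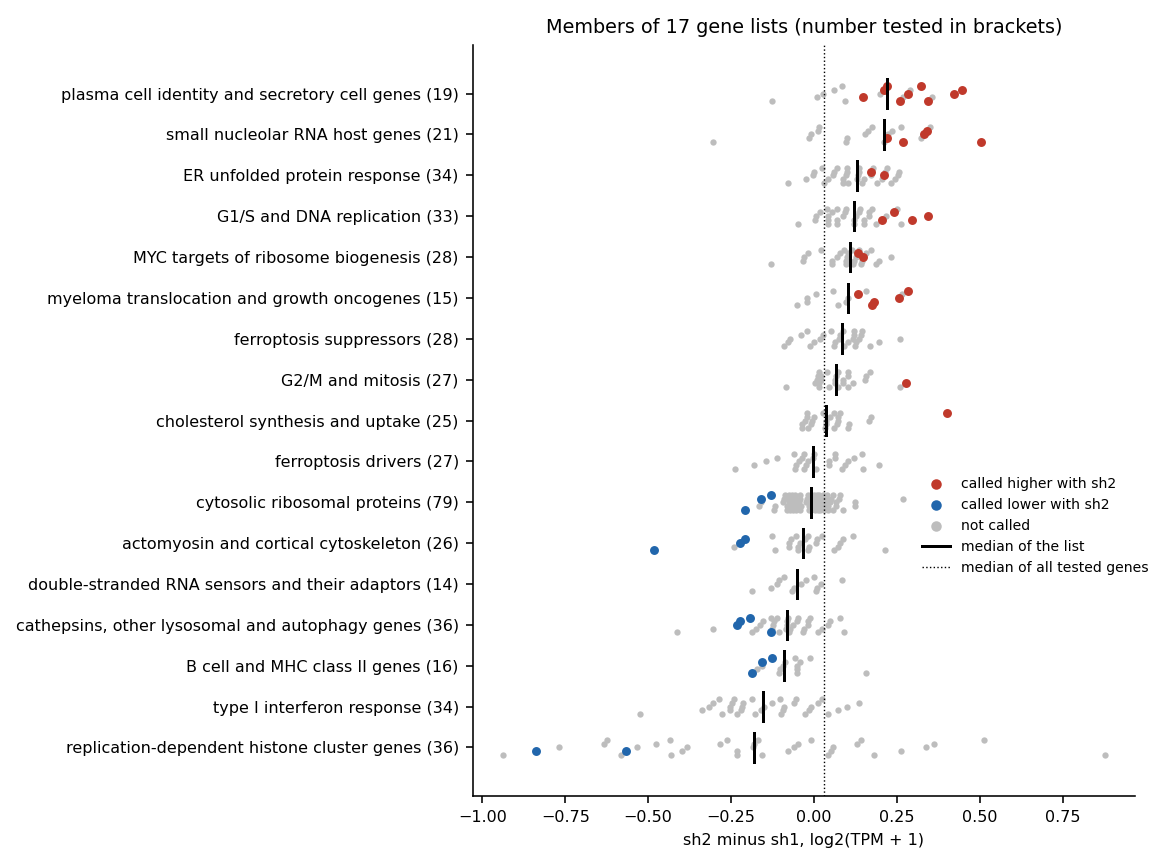
Difference of each tested member (sh2 minus sh1, horizontal axis, log2(TPM + 1)) in 17 gene lists, ordered by their median (black bar). Red and blue points are members called higher and lower with sh2, grey points are not called, and the dotted line is the median of all tested genes, 0.03. Plasma cell genes and small nucleolar RNA hosts lie to the right of it, interferon and histone genes to the left.

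Other lists held no call. Of 34 type I interferon response genes, 28 had a negative difference, against 39.3% of all tested genes, the lowest being -0.53 for IFIT2. The median of the interferon genes was -0.15, the lowest of the lists after the histone genes. It stayed between -0.16 and -0.14 when any hairpin library was left out. None passed with TPM as deposited, and 1 was lower with the GC trend removed. Double-stranded RNA sensors (14 genes, median -0.05) and the genes that process hairpins and microRNAs (13 genes, median -0.05) held none either. Nor did ferroptosis suppressors (28 genes, median 0.08), ferroptosis drivers (27, 0.00), NRF2 and glutathione genes (25, 0.02), ATF4 targets (32, 0.09), proteasome subunits (31, 0.04), p53 targets (19, -0.01), NF-kB genes (16, -0.03), BCL2 family genes (13, 0.02), ERK feedback genes (11, 0.07) or adhesion genes (11, 0.01). Lists near 0.03, the median of all tested genes, changed sign with the scaling.

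Of the genes tied to ferroptosis, none of 28 suppressors and none of 27 drivers tested was called, and SLC39A8 was the call among the 26 iron genes. GPX4, which reduces lipid peroxides, had 352 and 349 TPM with sh2 and 368 and 379.7 TPM with sh1, without overlap but without a call (log2 difference -0.09, 95% interval -0.18 to -0.01, adjusted p = 0.245). HMOX1, heme oxygenase 1, had 40.9 and 42.8 TPM with sh2 and 51.7 and 43.7 TPM with sh1 (-0.18, 95% interval -0.34 to -0.02, adjusted p = 0.219). FTL, the ferritin light chain, had 1013 and 990.4 TPM with sh2 and 1059 and 1057 TPM with sh1 (-0.08, 95% interval -0.17 to 0.01). ACSL4, TFRC, FTH1, SLC40A1 and NCOA4 had overlapping libraries, with differences from -0.02 to 0.08 and adjusted p of at least 0.597. SLC7A11, the cystine importer, stayed below 0.5 TPM with both hairpins and was not tested.

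The libraries carried the traits of the line. Of 22 plasma cell markers and secretory genes, 18 reached 1 TPM in a hairpin library, and CD38, CD27, FCRL5 and GPRC5D did not. In bulk RNA, fewer cells of a type and less RNA per cell cannot be told apart. T and NK cell markers were CD7, at 214 and 214 TPM with sh2 and 254 and 239 TPM with sh1 (adjusted p = 0.0694), and CD3E, below 6 TPM, while CD3D and CD3G were listed at 0 in all 4. Summed myeloid markers reached at most 2.83 TPM with sh2 and 2.36 TPM with sh1, fibroblast markers 0.570 TPM with sh2 and 0.599 TPM with sh1, and erythroid markers 0.0301 TPM with sh2 and 0.433 TPM with sh1. Epithelial markers summed to 10.9 to 11.8 TPM with sh2 and 9.99 to 10.1 TPM with sh1. Their part in the differences above was not tested.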

How the data were processed

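Poly(A)-selected, stranded RNA-seq libraries of KMS11 cells were analysed from 1 table of TPM for 29607 genes in 12 libraries of 6 groups. The authors deposited the values as TPM. Per the submitters' processing notes, the tools were RSEM 1.3.1, Bowtie2 2.3.4.3, DESeq2 1.4.5 and HISAT with the GRCh38.p13 genome, with no roles named. The 2 pairs of control columns were assigned to shControl and Vector by inference, from the library numbers of the labels; this touches only the shared spread here. No counts were used, so depth is unknown and no count model was fitted.

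A gene was tested if 2 or more libraries reached 1 TPM. A mean per group was fitted to log2(TPM + 1), which makes differences of low genes look smaller, with limma 3.58.1 (R 4.3.3), a trended eBayes step and adjustment by Benjamini-Hochberg; a call is an adjusted p under 0.05, and 6 residual degrees of freedom come from all 12 libraries. The fit was tested on simulated data. Positions and GC content came from GENCODE 29 (23598 symbols matched), classes and current symbols from RefSeq (24990 matched); the start regions came from RefSeq.

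Genes named are the death-associated protein kinases, a panel of ferroptosis, iron and myeloma genes, the 15 protein-coding calls with the largest difference in each direction and up to 5 of other classes (mean of at least 5 TPM with sh2 or sh1, libraries not overlapping), and up to 5 called members of each list, largest first. Other genes named (called in every fit that left out a library, called on 4 libraries alone, further list members, markers and hosts) were chosen after their values were seen. A few genes that these rules name are not reported here. The comparison and the lists were chosen with earlier results of these data known.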

Additional observations from a re-analysis of the deposited data

How the results depend on the processing

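The counts of genes higher and lower (148 and 49) depended on most choices. Left-out replicates gave 15 to 70 higher and 2 to 12 lower. The counts were 80 higher with no filter, 251 and 80 with a filter at 5 TPM, 4 and 1 with only the 4 hairpin libraries, and 15 and 6 with eBayes without trend. Rescaling gave 51 higher with the median of ratios, 93 higher without the 20 most abundant genes, and 90 lower with quantile normalization. Removing the GC trend, chosen after seeing the data, gave 141 lower. Calls of an estimated 2-fold or more were 6 and 1. With a replicate block, 87 were higher and 27 lower. The deviations of sh2 replicate 1 and sh1 replicate 1 from their group means had r = -0.0551 across genes. That correlation covers only the hairpin libraries, and whether the replicate numbers pair the libraries is not known. The pseudocounts, the robust fit and the scale without short RNAs and histone genes stayed within 1.5 times. The STK17B difference of 2.78 TPM ran from 1.89 to 3.67 TPM with a library left out. Of 1806 values for 101 named genes under alternatives, 1248 kept call and direction, 539 lost the call, 5 gained it and 14 changed sign, all of these without a call. The sign changes came from the ranges with a library left out of STK17A (-0.0939 to 0.00836), DAPK3 (-0.148 to 0.0362), ACSL4 (-0.0158 to 0.185), TFRC (-0.0429 to 0.172), FTH1 (-0.056 to 0.112), SLC40A1 (-0.0623 to 0.0229) and NCOA4 (-0.073 to 0.075); from FTH1 by the median of ratios (-0.00924); and from NCOA4 by the median of ratios (-0.0348), quantile normalization (-0.0305), the scale without the top 20 genes (-0.0123) and the GC trend removed (-0.0504). The causes were not tested. Unknown depth limits what low and short transcripts can show.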
